A study of Mus musculus with 2 samples.

Results

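Axon guidance genes encode secreted and membrane-bound cues and their receptors, and the ones described here were taken from the annotation of an expression array as every probe for an Eph receptor, an ephrin, a semaphorin, a plexin, a neuropilin, a Slit, a Robo, netrin 1, netrin 4 or the netrin receptor gene Unc5b. This gave 88 of the 25697 probes on the array and 58 of its 16593 named genes. The 8 probes of the Slitrk genes, which share only the first letters of their name with the Slits, were left out. RNA came from a culture of mouse embryonic fibroblasts, primary connective tissue cells of the embryo, labelled as given no agent, and from another labelled as given Fgf2, a growth factor that signals through receptor tyrosine kinases. Both cultures are labelled male, and dose, duration, strain and passage are not given in the labels. Each was run on 1 Illumina bead array, so no difference below has a replicate or a test. The title of the series places the cultures beside a protocol for making induced pluripotent stem cells with a growth factor.

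Guidance cues were first described for their part in steering axons, but they act on many migrating cells, fibroblasts included. Eph receptors are receptor tyrosine kinases that bind ephrins on the surface of a neighbouring cell, and signals run in both directions and often end in repulsion. Semaphorins bind plexins, the secreted class 3 members mostly with a neuropilin as co-receptor, and act on the cytoskeleton and on integrin adhesion. Slits bind Robo receptors, and netrins bind Dcc, neogenin and Unc5 receptors, which turn the cue into attraction or repulsion.

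A detection p-value below 0.01 was reached by 10564 probes in the untreated culture, where the median signal was 149, and by 10262 in the treated one, where it was 148.5. The series' design text calls both cultures untreated, against the titles and the agent labels, so each direction rests on those labels. Xist, the RNA of the inactive X chromosome, was detected on both arrays with signals of 477 without Fgf2 and 584 with it, which goes against the label male, while the Y-linked gene Eif2s3y was detected as well, at 575 and 496. All 12 fibroblast markers that have a probe were detected in both cultures, but their levels differed in both directions. Col1a1 was 5.76-fold, Col1a2 3.61-fold and Pdgfrb 3.48-fold lower with Fgf2, and Lum was 5.23-fold and Pdgfra 2.56-fold higher. The median difference of the 12 was -0.11 on the log2 scale. Of 11 endothelial markers 2, Egfl7 and Eng, were detected on both arrays and Esam only with Fgf2. The other 8, among them Pecam1, Cdh5, Kdr, Tek and Tie1, were detected on neither. Of 13 neuronal markers 2, Map2 and Stmn2, were detected on both arrays. Isl1 was detected only with Fgf2, at least 2.37-fold higher, and 10, among them Tubb3, Dcx, Snap25 and Nefl, on neither. The summed signal of the endothelial list was 1927 without Fgf2 and 2116 with it, and that of the neuronal list 2014 and 2115. Lists for glia, macrophages and epithelium had 1 of 5, 2 of 8 and 3 of 8 genes detected on both arrays, with summed signals of 681 and 721, 1430 and 1556, and 1911 and 1695. These sums are mostly background of undetected probes, and single markers differed by more: Cd14 was 2.99-fold higher with Fgf2, Krt19 2.50-fold higher, and Krt14, detected only without Fgf2, at least 5.86-fold lower. Of 6 smooth muscle and pericyte markers, Acta2, Des and Mcam were detected on both arrays, Myh11 and Cspg4 only without Fgf2, and Rgs5 on neither. The median difference of the 3 was -1.10 on the log2 scale, with Mcam 2.50-fold and Des 2.14-fold lower with Fgf2, which is about the size of the lower guidance genes below. Their summed signal, 41413 without Fgf2 and 34269 with it, is nearly all Acta2, which read 39121 and 32942. The part of any of these lists in the differences below was not tested. In RNA from whole cultures, fewer cells of a type and less RNA per cell cannot be told apart.

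With Fgf2, Sema7a was more than 2-fold higher, and the genes of EphA3, ephrin-B1 and the netrin receptor Unc5b were more than 2-fold lower. Smaller differences, short of 2-fold, were above 0 for Sema3a, Sema4b and Sema5a and below 0 for Sema3f, Slit2 and Robo1. A gene was represented by its brightest probe, and its difference is the log2 level with Fgf2 minus that without, after background correction and quantile normalization. Of the 58 genes, 20 were above background in both cultures, 34 in neither, and 2 each in the treated or the untreated culture alone. Detected on both arrays were 41.6% of all genes. Among the 20, Sema7a was at least 2-fold higher, against 1.80% of all genes detected on both arrays, and Efnb1, Epha3 and Unc5b were at least 2-fold lower, against 2.52%. At 1.5-fold the counts were 4 higher and 6 lower of the 20, against 6.76% and 7.25% of all genes. The median difference of the 20 was -0.19, and that of all 6898 genes detected on both arrays 0.03. Their median absolute difference was 0.55, against 0.23. Where a gene had several detected probes (1749 genes), their differences scattered with a pooled SD of 0.22, and 16 of the 20 differed by more than this, against 53.0% of all genes. That SD says nothing of how cultures vary.

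**Figure D1:**
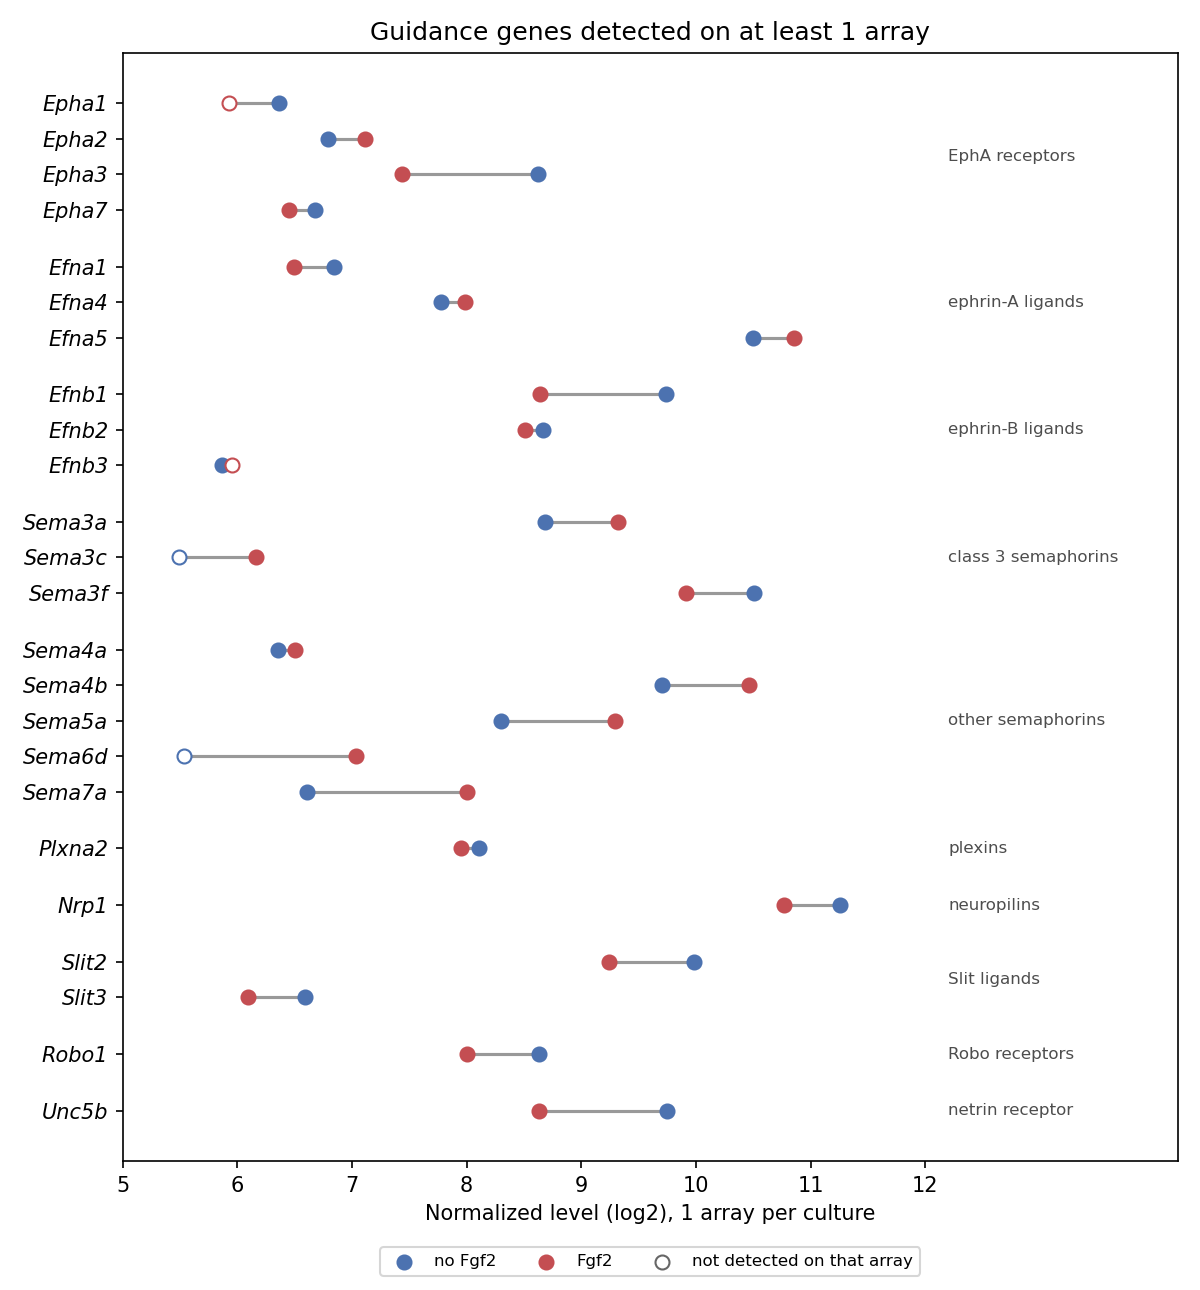
Normalized log2 level of the 24 guidance genes detected on at least 1 array, by the brightest probe of each, with 1 point for the culture without Fgf2 and 1 for the culture with it; open circles mark a level not above background. Levels of different genes come from different probes and cannot be set against each other. Sema7a, Sema6d and Sema5a have their higher point with Fgf2, and Epha3, Unc5b and Efnb1 without it.

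The 4 genes past 2-fold, together with Sema5a, which lay at its edge, are the ones the comparison turns on, and their promoters are shown for that reason. Each sequence runs 300 bases around an annotated transcription start, from RefSeq on GRCm38.p6, written 5′ to 3′ along the gene. Capitals mark every match, on either strand, to TGANTCA (the site of AP-1 factors), CCGGAA (a core of ETS factor sites), GGAATG (TEAD) or GGGCGG (the GC box), and where matches overlap their letters run together. Sema7a lies at chr9:57939862-57940161 on the plus strand, Sema5a at chr15:32244563-32244862 on the plus strand, Efnb1 at chrX:99135811-99136110 on the plus strand, Epha3 at chr16:63864126-63864425 on the minus strand and Unc5b at chr10:60831532-60831831 on the minus strand.
Sema7a: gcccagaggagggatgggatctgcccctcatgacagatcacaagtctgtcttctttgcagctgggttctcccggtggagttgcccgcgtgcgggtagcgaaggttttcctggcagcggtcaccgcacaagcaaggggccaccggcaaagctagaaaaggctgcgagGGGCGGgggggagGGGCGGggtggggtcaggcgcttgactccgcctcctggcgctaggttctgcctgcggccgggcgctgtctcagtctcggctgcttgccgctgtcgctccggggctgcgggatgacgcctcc
Sema5a: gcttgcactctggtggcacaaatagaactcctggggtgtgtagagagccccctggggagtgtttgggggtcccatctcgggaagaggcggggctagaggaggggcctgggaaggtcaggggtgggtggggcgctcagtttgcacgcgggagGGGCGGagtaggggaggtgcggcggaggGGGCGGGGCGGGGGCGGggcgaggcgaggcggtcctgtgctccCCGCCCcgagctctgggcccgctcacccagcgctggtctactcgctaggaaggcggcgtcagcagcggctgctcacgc
Efnb1: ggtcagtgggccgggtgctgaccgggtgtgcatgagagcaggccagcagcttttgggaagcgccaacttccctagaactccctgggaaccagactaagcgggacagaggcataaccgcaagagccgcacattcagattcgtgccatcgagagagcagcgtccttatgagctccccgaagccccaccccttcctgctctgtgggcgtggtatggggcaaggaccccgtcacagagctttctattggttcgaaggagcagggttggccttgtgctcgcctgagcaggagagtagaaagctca
Epha3: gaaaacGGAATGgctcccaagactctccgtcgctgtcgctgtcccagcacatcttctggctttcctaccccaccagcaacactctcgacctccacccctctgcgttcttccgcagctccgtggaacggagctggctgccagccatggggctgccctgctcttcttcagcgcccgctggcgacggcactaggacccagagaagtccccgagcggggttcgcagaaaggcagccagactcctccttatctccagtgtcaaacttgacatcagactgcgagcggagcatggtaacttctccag
Unc5b: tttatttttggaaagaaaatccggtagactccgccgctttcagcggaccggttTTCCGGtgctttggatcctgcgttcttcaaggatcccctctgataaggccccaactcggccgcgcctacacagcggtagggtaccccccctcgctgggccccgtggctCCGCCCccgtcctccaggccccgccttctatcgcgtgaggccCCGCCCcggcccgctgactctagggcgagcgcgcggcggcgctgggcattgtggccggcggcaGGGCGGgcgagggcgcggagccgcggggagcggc

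In these windows Sema7a held 2 GC boxes, Sema5a 5 and Unc5b 3, while Efnb1 and Epha3 held 0. A GC box stood in 35.7% of all 32851 promoter windows. The GC content was 67.3% for Sema7a, 71.3% for Sema5a and 69.7% for Unc5b, above the 59.7% of Efnb1 and the 60.7% of Epha3. The median of all windows was 52.7%. Unc5b held 1 ETS core, present in 14.9% of all windows, and Epha3 held 1 TEAD match, present in 14.7%. None of the 5 held TGANTCA, present in 7.81% of all windows. For 19 of the 20 guidance genes detected on both arrays 25 windows were found, of which 19 held a GC box, 4 a TEAD match, 3 an ETS core and 0 TGANTCA. The shares and the median over all windows include genes not detected here, and none was taken over detected genes alone. The values therefore cannot be read as particular to guidance genes. Matches are a description of these letters only.

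Among the Eph receptors, Epha3 was the member that stood out, and it was lower with Fgf2. EphA3 binds ephrin-A ligands, and ephrin-A5 with high affinity. Its brightest probe read a signal of 505 without Fgf2 and 286 with it, and all its probes were detected on both arrays. The difference was -1.19, or 2.29-fold lower. The other probes gave -0.81 and -0.73, the same direction with a smaller size, and the mean of the 3 probes was -0.91 ± 0.25 (SD, n = 3 probes), short of 2-fold. Epha2, a receptor of ephrin-A1 among others, read 221 without Fgf2 and 252 with it, a difference of 0.32. Epha7 read 214 and 201, a difference of -0.23, and its other 2 probes were not detected on either array.

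Epha1 was detected only without Fgf2, by 1 of its 4 probes. That probe read 194 without Fgf2 and 173 with it, where its detection p-value was 0.0113, and it was at least 1.29-fold lower with Fgf2. The bound is taken from the lowest level called detected in the treated culture, and 8.05% of genes detected only without Fgf2 had one of 2-fold or more. Epha4, Epha5, Epha6, Epha8 and Epha10 were not detected on either array. The EphB receptors with a probe named here, Ephb1, Ephb3, Ephb4 and Ephb6, were not detected either, with detection p-values from 0.0251 to 0.732. Ephb2 was not analysed here.

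Among the ephrins, the A ligands had small differences of either sign, and of the B ligands only Efnb1 was clearly lower with Fgf2. Ephrin-A ligands are held to the membrane by a lipid anchor, whereas ephrin-B ligands span it and can signal inwards. Efnb1, mutated in human craniofrontonasal syndrome, read a signal of 959 without Fgf2 and 514 with it. The difference was -1.09, or 2.13-fold lower, by its only probe. Efnb2, which also marks arterial endothelium, read 517 and 479, a difference of -0.16 and so within the SD between probes. Efnb3 read 171 and 174 with detection p-values of 0.00877 and 0.0113, at the threshold on both arrays, and no fold is given.

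Efna5 read a signal of 1583 without Fgf2 and 1946 with it, a difference of 0.35. Efna4 read 328 and 370.4, a difference of 0.21, and its other detected probe gave 0.10. Efna1 went the other way, with 225 and 203 and a difference of -0.35. None of the 3 reached 1.5-fold. Efna2 and Efna3 were not detected on either array. Efna5 and its receptor gene Epha3 therefore differed in opposite directions, the ligand higher with Fgf2 and the receptor lower. Efna1, also an A ligand, was lower as Epha3 was.

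Most semaphorin genes detected in both cultures had a higher level with Fgf2, but these genes are few. Of 18 such genes with a probe, 6 were detected in both cultures, and 5 of these had a difference above 0, as had 53.9% of all genes detected on both arrays. The median of the 6 was 0.70, against 0.03 for all genes detected on both arrays. At 1.5-fold 4 were higher and 1 lower, against 6.76% and 7.25% of all genes detected on both arrays. A further 2 were above background in the treated culture alone and 0 in the untreated culture alone, beside 279 and 472 of all 16593 genes. Detection on 1 array alone favours a higher level on that array, so these 2 add nothing to the count above 0. The exception among the 6 was Sema3f.

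Sema7a, the semaphorin with a lipid anchor, which binds integrins and plexin C1, read a signal of 209 without Fgf2 and 372 with it. The difference was 1.39, or 2.63-fold higher, the greatest among the 20. Without Fgf2 the probe was close to background, with a detection p-value of 0.00125. The other 2 probes of Sema7a were not detected on either array and gave 0.48 and 0.11. With a detection p-value below 0.001 asked for on both arrays, Sema7a was no longer among the genes compared.

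Sema5a, a transmembrane semaphorin with thrombospondin repeats, was measured by 2 probes with like results. The brighter read 424 without Fgf2 and 740.3 with it, and the dimmer 326 and 560.3. The differences were 0.995 and 1.03, a mean of 1.01 ± 0.03 (SD, n = 2 probes), so the brighter probe fell just short of 2-fold and the dimmer just past it. Sema4b, a transmembrane semaphorin of class 4, read 941 and 1506, or 1.69-fold higher. Sema4a, of the same class, read 194 and 204, a difference of 0.15 that lay within the SD between probes.

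Sema6d, a transmembrane semaphorin that binds plexin A1, was detected only with Fgf2. Its brightest probe read 158 without Fgf2, with a detection p-value of 0.0351, and 246 with it. It was at least 2.25-fold higher, a bound of 2-fold or more that 11.1% of genes detected only with Fgf2 reached. Its other 3 probes, annotated to the same gene, were detected on neither array. They gave differences of 0.37, -0.16 and -0.26.

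The secreted class 3 semaphorins went in both directions. Sema3a, which repels axons through neuropilin 1, read a signal of 521 without Fgf2 and 753 with it, or 1.56-fold higher. Sema3f, which acts mainly through neuropilin 2, read 1591 and 1079, or 1.51-fold lower. A second detected probe of Sema3f read 1008 and 765, a difference of -0.47 against -0.60 for the brighter. Sema3c read 157 and 185, was detected only with Fgf2, and was at least 1.23-fold higher. Sema3b, Sema3d, Sema3e and Sema3g were not detected on either array, nor were Sema4d, Sema4f, Sema4g, Sema6a, Sema6b and Sema6c.

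**Figure D2:**
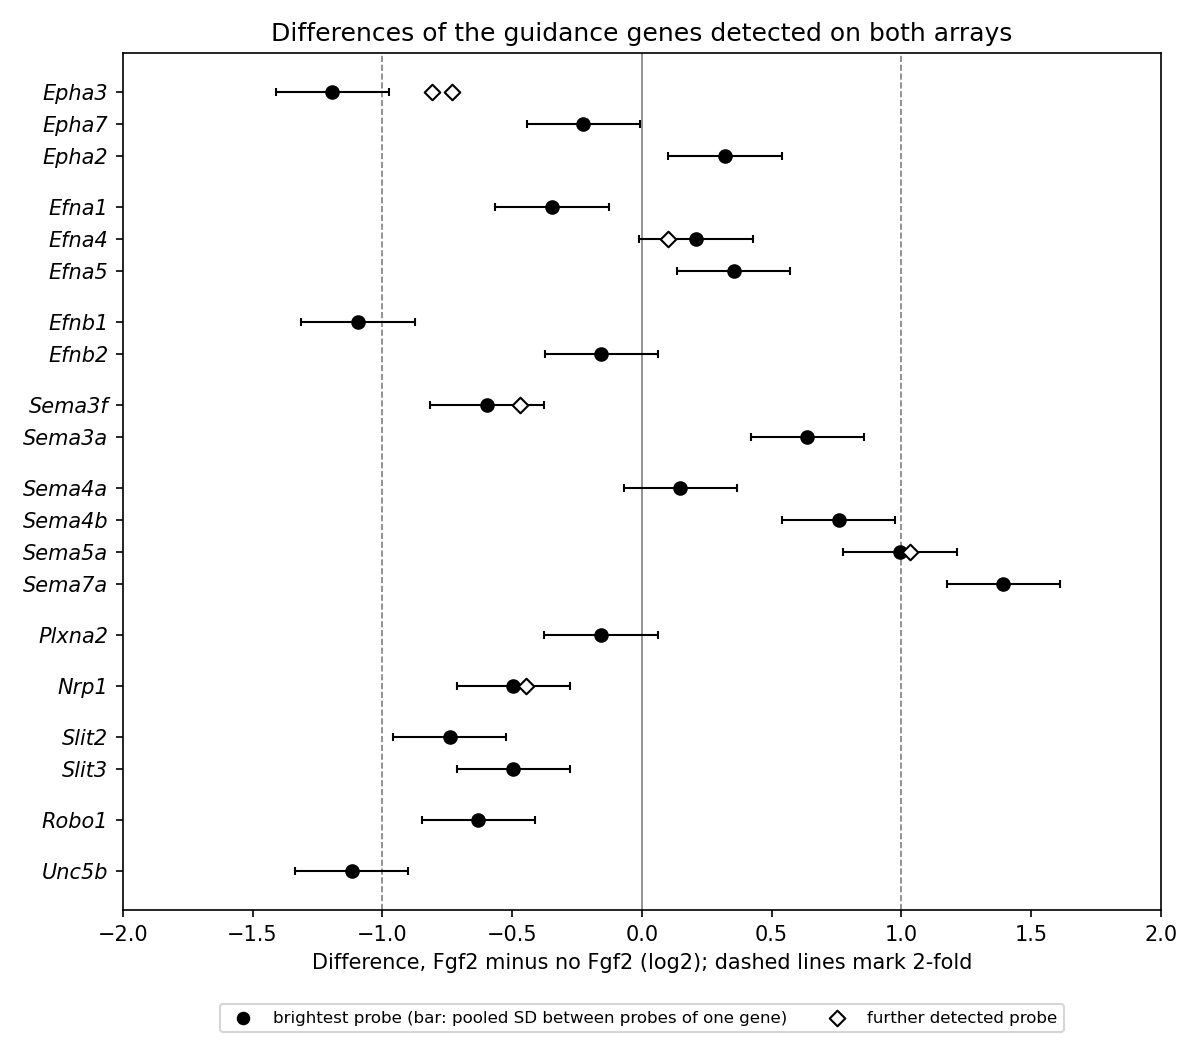
Log2 difference between the cultures, Fgf2 minus no Fgf2, of the 20 guidance genes detected on both arrays, grouped by family. Filled points are the brightest probe with a bar of 0.22, the pooled SD among probes that share a gene, diamonds are further detected probes, and dashed lines mark 2-fold. Every further probe lies on the same side of 0 as the brightest one.

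Of the semaphorin receptors only Nrp1 and Plxna2 were above background. Both had a difference below 0, as had 45.9% of all genes detected on both arrays, and so few genes show no lean. Nrp1, the co-receptor of class 3 semaphorins and of vascular endothelial growth factor, read a signal of 2564 without Fgf2 and 1837 with it, a difference of -0.50. Its other probe read 2429 and 1791, a difference of -0.45. Sema3a and its co-receptor gene Nrp1 thus differed in opposite directions, while Sema3f, also of class 3, was lower as Nrp1 was. Nrp2 was not detected by any of its 3 probes.

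Of 8 plexins 1 was detected, where 46.1% of all genes were detected on at least 1 array. Plxnb2 was not analysed here. Plxna2, a receptor that class 3 and class 6 semaphorins share, read 384 without Fgf2 and 364 with it, a difference of -0.16 that lay within the SD between probes. Plxna1, Plxna3, Plxna4, Plxnb1, Plxnb3, Plxnc1 and Plxnd1 were not detected on either array. Their detection p-values ran from 0.0113, for Plxnb1 without Fgf2, to 0.956. Plexin C1, a receptor of Sema7a, and plexin A1, a receptor of Sema6d, were thus below detection by the probes of this array, and integrins, which Sema7a also binds, were not looked at here.

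The Slit and Robo genes that were detected had differences below 0, short of 2-fold. Slit2, a secreted ligand that repels many migrating cells, read a signal of 1121 without Fgf2 and 719 with it, or 1.67-fold lower. Slit3 read 208 and 181, a difference of -0.50, with detection p-values of 0.00125 and 0.00627. Robo1, their receptor, read 507 and 373, or 1.55-fold lower. Ligand and receptor were therefore both lower with Fgf2, and none of the 3 reached 2-fold. Slit1, Robo2 and the endothelial Robo4 were not detected on either array.

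The netrin receptor gene Unc5b was lower with Fgf2, while netrins 1 and 4 were below detection. Unc5b, a netrin receptor that mediates repulsion and can trigger cell death when unbound, read a signal of 964 without Fgf2 and 511 with it. The difference was -1.12, or 2.17-fold lower, by its only probe. Ntn1 and Ntn4 were not detected on either array, with detection p-values from 0.0163 to 0.897. Ntn3 and the receptor gene Unc5c, from the wider list of related genes below, were detected on both arrays and differed by -0.34 and -0.31. The 4 detected genes of the Slit, Robo and netrin group all had differences below 0, as had 45.9% of all genes detected on both arrays, and 4 genes are few.

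**Figure D3:**
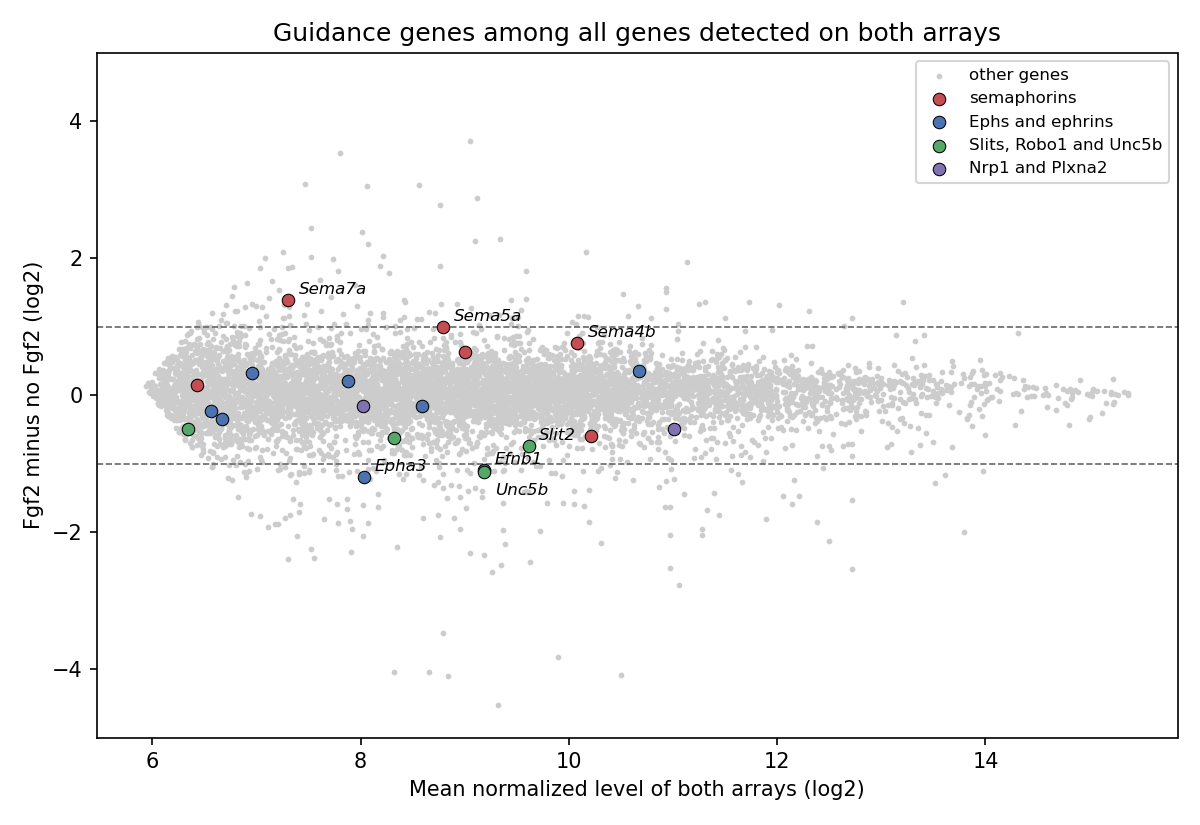
Difference between the cultures (Fgf2 minus no Fgf2, log2) against the mean log2 level of both arrays, for all 6898 genes detected on both; grey points are other genes, coloured points the 20 guidance genes by family, and dashed lines mark 2-fold. Sema7a lies above the upper line, and Epha3, Unc5b and Efnb1 lie below the lower one.

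By role, the 13 ligands detected on both arrays had 7 differences above 0 and 6 below, with a median of 0.15. The 7 receptors had 1 above 0, Epha2, and 6 below, with a median of -0.50, where 45.9% of all genes detected on both arrays were below 0. Of 31 ligand genes 51.6% were detected on at least 1 array, and of 27 receptor genes 29.6%, against 46.1% of all genes. The split was not tested.

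A wider list of related genes held other receptors, ligands and proteoglycans, and the adaptors and signalling proteins that act below guidance receptors. Their median absolute difference was 0.27, beside 0.55 for the guidance genes and 0.23 for all genes. Of 105 such genes listed, 89 had a probe and 50 were detected in both cultures. Among these 1 was at least 2-fold higher and 2 at least 2-fold lower, beside 1.80% and 2.52% of all genes, and their median was -0.08. Rgma, a ligand of the netrin receptor neogenin, read a signal of 593 without Fgf2 and 1267 with it, or 2.37-fold higher. Its relative Rgmb was detected only with Fgf2, at least 2.77-fold higher by 1 of its 3 probes, though its detection p-value without Fgf2 was 0.01003, at the threshold. Neogenin itself, Neo1, differed by 0.44.

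Of the 50 genes of this list detected on both arrays, 22 had a difference above 0 and 28 below. Over all genes detected on both arrays the shares were 53.9% and 45.9%. Of the 8 with the greatest absolute differences 6 were lower with Fgf2. They were picked by the size of that difference and do not stand for the list. Limk2, a kinase that inactivates cofilin, read 732 and 418, or 2.07-fold lower, and its other probe, not detected, gave 0.25. Mical1, an enzyme that oxidizes actin and binds plexins, read 321 and 219.7, or 2.01-fold lower, and its other 2 probes, detected only without Fgf2, also gave values below 0. Dpysl4, of the collapsin response mediators, was 1.97-fold lower by its brightest probe, while its other 2 probes, not detected, gave 0.43 and -0.04. Rnd3, a small GTPase, was 1.91-fold lower. Sdc2, a heparan sulfate proteoglycan, was 1.93-fold lower and the kinase gene Gsk3b 1.73-fold. Vav3, an exchange factor that Eph receptors recruit, was 1.83-fold higher by its brightest probe, while its other 2 probes, not detected, gave -0.34 and -0.27. Rnd2, a relative of Rnd3, was detected only with Fgf2 and was at least 2.01-fold higher.

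**Figure D4:**
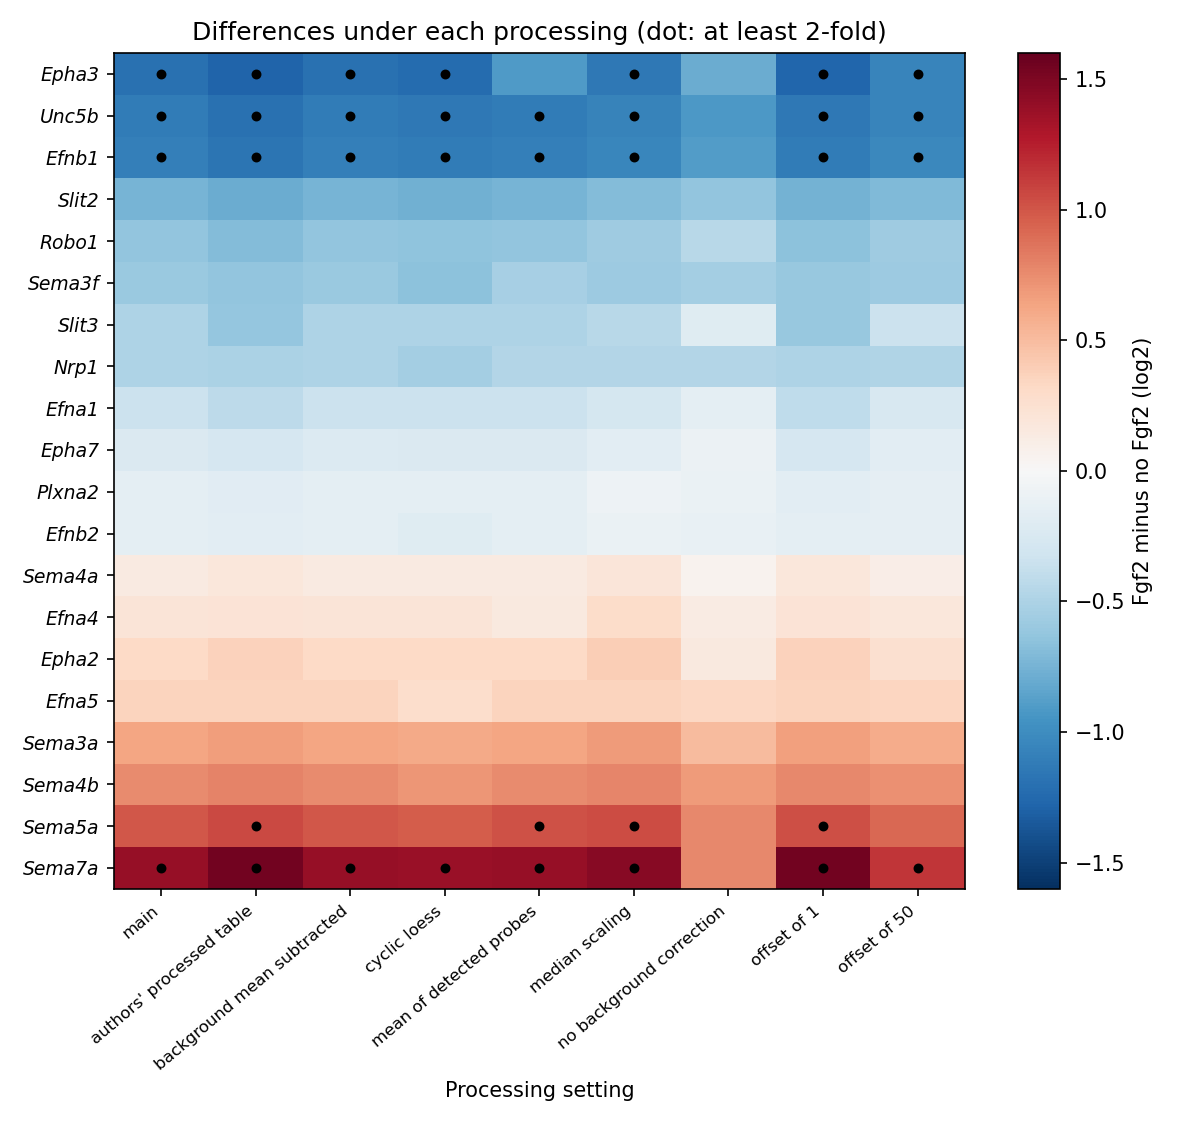
Difference between the cultures (Fgf2 minus no Fgf2, log2) of the 20 guidance genes under the reported processing (first column, main) and 8 others, coloured from blue (lower with Fgf2) to red (higher), with a dot where it reached 2-fold. No gene changes colour across a row, and the column without background correction has no dot.

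The direction of each of the 20 genes was the same under all 8 other ways of processing, 160 of 160 values. These settings re-use the same signals, so they are not independent and say nothing of how cultures vary. Without background correction, none of the 20 genes reached 2-fold. There Sema7a differed by 0.77, Epha3 by -0.80, Efnb1 by -0.89 and Unc5b by -0.91. In the authors' own processed table Sema5a joined Sema7a past 2-fold, with 1.06 and 1.55.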

How the data were processed

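Total RNA of 2 cultures was amplified into biotinylated cRNA, per the labels' protocols, and read on 1 bead array each. The deposited table holds, per the file headers, a signal and a detection p-value for each probe. The signals as deposited are linear intensity values, and the p-value falls as the signal rises. Their quartiles differ between the arrays, so they were not quantile normalized. Whether they were scaled in another way cannot be told from them. The second table deposited by the authors is on a log2 scale, with a median of 4.30 on both arrays and the ranks of the signals. The submitters' processing notes name BeadStudio 3.2, lumi and RMA without saying what each did.

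Signals were corrected in limma 3.58.1 (R 4.3.3) by normexp, with the background (means 127.9 and 128.4) inferred from the detection p-values, an offset of 16 was added, and arrays were quantile normalized. Background in the signal compresses differences of dim probes, so the correction moves their size. The step was tested on simulated arrays with noise of a size set in advance, on which the counts depend. There all 50 probes changed 3-fold passed 2-fold, as did 1 of 50 changed 1.5-fold. Of 50 changed 8-fold, 46 were detected on both arrays, and all 46 passed. Only probes well above background were changed, and none by 2-fold, so the simulation does not cover dim probes such as that of Sema7a. A probe was detected at a detection p below 0.01. Symbols came from the platform annotation (23978 probes named, 1719 not) and were updated by Entrez number, which altered 0 of the 88 probes described. For each gene the probe of highest mean level was used. A gene detected on 1 array has a bound, against the lowest detected level of the other array (5.87 without Fgf2, 5.99 with it) or its own level there if higher. With 1 array per group no test was run, and the number of arrays limits the precision. Python 3.11.15, pandas 2.3.3, numpy 2.4.6 and matplotlib 3.10.9 were used. Every gene detected on at least 1 array is named with its values. Of the wider list of related genes, those named are the 8 with the greatest absolute difference and those with a bound of at least 2-fold. Neo1, Ntn3 and Unc5c were added after their values were seen. Members and lists were chosen with earlier results of these data known. Alternatives were other background corrections, offsets, normalizations, detection filters, fold thresholds and probe summaries, and the authors' table.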

Additional observations from a re-analysis of the deposited data

How the results depend on the processing

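No paired analysis was possible because each group holds 1 array. As reported, 1 guidance gene passed 2-fold upwards and 3 downwards. Without background correction, and at a threshold of 3-fold, both counts were 0. The higher count was 2 with an offset of 1, median scaling, the authors' table or the mean of detected probes, and 2 with any detected probe counted, an alternative added after seeing the data, all through Sema5a. It was also 2 at a detection p below 0.05, with detection on at least one array, or with no detection filter, through Sema6d, and 0 at a detection p below 0.001, where Sema7a was not compared. At 1.5-fold the counts were 4 and 6. The lower count was 2 with the mean of detected probes, without Epha3. The median of the guidance genes stayed below 0 under each setting, from -0.25 to -0.05. Signal over background limits Sema7a, Slit3, Epha1, Efnb3, Sema3c and Sema6d, and no replicate exists for any value.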

Other observations

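Of the guidance genes below detection, 5 had a detection p-value under 0.05 on both arrays: Ntn4, Plxnb1, Plxnc1, Robo2 and Sema4d. Plxnc1, which encodes a receptor of Sema7a, read a signal of 157 without Fgf2 and 159 with it, a difference of 0.07. Ntn4, a netrin of basement membranes, read 166 and 158, and Robo2 161 and 157. Their differences ran from -0.23 to 0.07, about as large as or smaller than the pooled SD of 0.22 among probes that share a gene.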
